A study of Mus musculus with 6 samples.

Results

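Polyamines are small positively charged metabolites that bind nucleic acids and are made in large amounts by dividing and differentiating cells, male germ cells among them. The genes described here encode the enzymes that make polyamines and the proteins that hold those enzymes in check. They were taken as the contigs, the annotated transcripts to which reads had been assigned, whose mouse gene symbol was Odc1, Amd1, Srm, Oaz1, Oaz2, Oaz3, Azin1 or Azin2. Of these 8 genes, 7 were found, on 18 of 12114 contigs and with 3491 of 1968636 read counts. A read listed on more than 1 contig counted on each, which applied to 4727 of 1963589 distinct reads. No contig used here carried the symbol Srm, the gene of spermidine synthase, so Srm was not analysed.

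Direct RNA sequencing on nanopores passes native polyadenylated molecules through a pore tail first, and a read therefore stands for 1 transcript and carries the length of its poly(A) tail in nucleotides (nt). Testis cells of adult wild-type C57BL/6J/B6 mice had been stained for DNA content and sorted into pachytene and diplotene spermatocytes (P/D spermatocytes), which are in late meiotic prophase, and round spermatids (RS), which are haploid. Each cell type had 3 samples, and each sample was the mRNA of 3 pooled mice. Multiplexing put all P/D samples into 1 library and all RS samples into a second, so that cell type and library cannot be told apart. In the study's microscopy a large part of the cells in the P/D gate were not P/D spermatocytes, and the RS gate was purer.

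The samples held 244004 to 305950 reads in P/D spermatocytes and 316653 to 474688 reads in RS. The mean tail over all reads was 107 to 109 nt in the P/D samples and 152 to 157 nt in the RS samples. A list of 10 spermatocyte markers took 0.421 to 0.426% of the reads of the P/D samples and 0.262 to 0.286% of those of RS. Among them the meiotic gene Piwil1 had 113 to 127 reads in P/D and 8 to 13 in RS, whereas Ccna1 (57 to 91 against 88 to 130 reads) and Mael (462 to 561 against 601 to 874) had more reads in RS, whose samples were deeper. Among the spermatid markers the acrosomal gene Acrv1 had 4 to 12 reads in P/D and 153 to 205 in RS, but Acrbp and Hspb9 were in P/D at 100.7% and 169% of their RS level. Markers of Sertoli cells, Leydig cells and spermatogonia summed to between 0 and 7 reads in a sample, which rests on the 2 of 6, 1 of 5 and 1 of 6 that have a contig (the others were not analysed here). All levels are shares of the polyadenylated reads of a sorted population, so fewer cells of a type and less RNA per cell cannot be told apart.

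Odc1 encodes ornithine decarboxylase, the enzyme that converts ornithine into putrescine and commits the cell to polyamine synthesis. Amd1 encodes S-adenosylmethionine decarboxylase, which supplies the aminopropyl groups that turn putrescine into spermidine and spermine. The antizymes, encoded by Oaz1, Oaz2 and Oaz3, bind ornithine decarboxylase monomers and inactivate them, and antizyme 1 also delivers the enzyme to the proteasome without ubiquitin. Azin1 and Azin2 encode antizyme inhibitors, relatives of ornithine decarboxylase with no decarboxylase activity that bind antizyme and release the enzyme. Polyamines raise antizyme synthesis by making ribosomes shift frame on antizyme mRNA, and Oaz3 is known as an antizyme of haploid male germ cells.

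The frameshift site is shown because it is the sequence that defines the 3 antizyme transcripts as a family. GENCODE vM21 models the shift as an exon gap of 1 base. Below are 30 coding bases of GRCm38.p6 around that gap, written 5′ to 3′ as DNA, with the last codon of the first frame and the stop codon that the shifted ribosome avoids in capitals.
Oaz1-207: ctcggtggtgcTCCTGAtgtccctcaccca
Oaz2-206: ctctgtggtgcTCCTGAtgcccctcaccca
Oaz3-204: gcctccagtgcTCCTGAgtccctaggaggc
These windows lie at chr10:80828281-80828310 on the forward strand for Oaz1, chr9:65686258-65686287 on the forward strand for Oaz2 and chr3:94436019-94436048 on the reverse strand for Oaz3. In each window the skipped base was the T of the capital TGA, at position 15 counted from the 5′ end. The Oaz1 and Oaz2 windows were identical at 28 of 30 bases, whereas Oaz3 matched Oaz1 at 13 and Oaz2 at 15.

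Over the whole set, the gene-level test called tails longer in RS for Odc1, Oaz2 and Azin1, and reads moved in either direction. Of these tail calls, only that of Odc1 held under every alternative processing. Of 18 contigs, 11 had enough reads to be tested, and the other 7 held 1 to 31 reads each. The filter was passed through RS alone by both Azin2 contigs and Oaz3-205, and through P/D spermatocytes alone by both Amd1 contigs tested and Azin1-201, so these contigs entered because they were abundant in 1 cell type.

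At the transcript level, 4 of the 11 contigs had longer mean tails in RS (limma, Benjamini-Hochberg adjusted p below 0.05), where 54.2% of all 6990 contigs tested did, and none had shorter tails. At the gene level 3 of 7 did, against 54.8% of 5405 genes, and the median difference was 24.5 nt over the 7 genes and 35.04 nt over all genes tested. For accumulation, 5 of 11 contigs had more reads in RS and 4 had fewer (edgeR quasi-likelihood test), against 32.6% and 30.8% of 6005 contigs. As genes, 2 of 7 rose and 3 fell, against 34.7% and 31.2% of 4967 genes. The contigs that passed the filter through RS alone were all among those with more reads in RS. Those that passed it through P/D spermatocytes alone were all among those with fewer. For these contigs, entry to the test and direction are linked. So they are for the genes Azin2, which entered through RS alone, and Amd1, which entered through P/D spermatocytes alone. Requiring 10 counts in every sample left 5 contigs, of which 2 had more reads in RS and 0 had fewer.

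**Figure D1:**
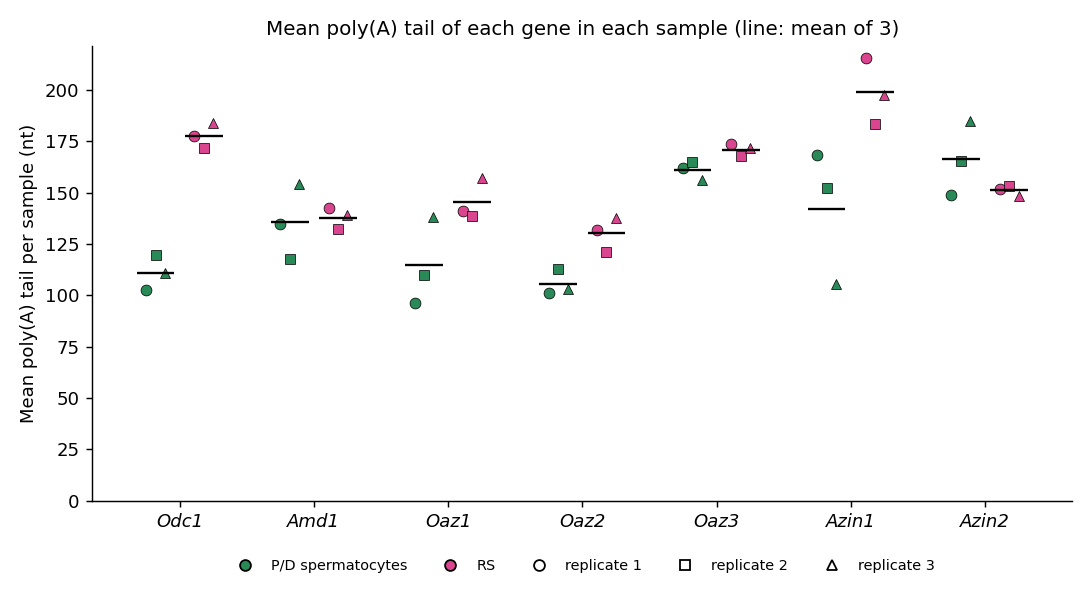
Mean poly(A) tail (nt) of each gene in each of the 6 samples; green points are P/D spermatocytes, pink points are RS, the symbol gives the replicate and the black line is the mean of 3 samples. The Odc1 points of the cell types are far apart, at 103 to 119 nt and 172 to 184 nt, while those of Oaz3 lie between 156 and 174 nt in all samples.

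Odc1 had the largest estimated rise in tail length among the members and had nearly the same level in both cell types. Its mean tail was 103, 119 and 111 nt in the P/D samples and 178, 172 and 184 nt in the RS samples. The groups did not overlap, and the difference was 66.6 nt (SE 6.58, limma adjusted p = 0.000387), larger than that of 86.2% of the genes tested. Reads with tails of 120 to 210 nt, the class that holds most RS reads, made up 30.9% ± 7.29 of Odc1 reads in P/D spermatocytes against 78.6% ± 1.10 in RS (SD, n = 3), where they were 28.5 to 30.3% and 66.4 to 68.3% of all reads. The class of 30 to 120 nt went from 56.2% ± 6.34 to 5.96% ± 2.92 of Odc1 reads (SD, n = 3). The spread of Odc1 tails within a sample was also smaller in RS, with an SD over reads of 37.8 to 45.0 nt against 64.5 to 69.7 nt in P/D spermatocytes. The same held for Oaz3 (31.7 to 35.8 against 51.6 to 58.2 nt), whereas the values of Oaz1 and of Oaz2 overlapped between cell types. This spread was not computed over all genes.

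Very short tails were found on Odc1 in P/D spermatocytes. There, 15 of 296 Odc1 reads pooled over the samples had tails below 30 nt, whereas 0 of 474 did in RS. Counting error alone allows a share of up to 0.633% in RS, and this limit does not cover the spread between pools of mice. Over all reads, tails below 30 nt were 2.40 to 3.55% in the P/D samples and 0.194 to 0.385% in the RS samples.

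Odc1 accumulated at 447, 307 and 343 reads per 1000000 reads of the sample (RPM) in P/D spermatocytes and 448, 407 and 390 in RS. The groups overlapped, and the log2 fold change was 0.29 (SE 0.14, edgeR adjusted p = 0.0687), which is a rise of 1.22-fold that did not pass the test. It passed with the replicate number as a block (0.30, adjusted p = 0.0362), while over all its alternatives the adjusted p ran from 0.0108 to 0.863.

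Odc1 reads were split between 2 annotated transcripts that end at different places. The major one, Odc1-201 (chr12:17544794-17551084, forward strand), is protein coding and had 97, 82 and 82 reads in P/D spermatocytes against 125, 129 and 97 in RS. Odc1-205 (chr12:17547689-17551505, forward strand), listed as a nonsense-mediated decay transcript, had 12, 12 and 11 reads in P/D and 17, 64 and 42 in RS. Odc1-205 starts inside the gene and ends 421 bases downstream of Odc1-201. The poly(A) signals of both ends are shown because each end needs its own; the hexamer AATAAA, searched on the transcript strand in the last 50 bases, is in capitals.
Odc1-201: ttgtgaaAATAAAgtatcttgaaa
Odc1-205: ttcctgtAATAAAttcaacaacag
The hexamer began 25 bases from the annotated end of Odc1-201 and 23 bases from that of Odc1-205. It was present in 61.1% of the 11344 contigs found in GENCODE vM21, and it or ATTAAA in 75.7%. Among the 16 member contigs in that annotation, 13 held AATAAA and 1, Azin1-201, held ATTAAA.

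The tails of both Odc1 transcripts lengthened. Odc1-201 went from 112 ± 6.39 to 177 ± 5.92 nt and Odc1-205 from 103 ± 25.9 to 177 ± 10.2 nt (SD, n = 3), with limma adjusted p = 0.000569 and 0.00512. In reads, Odc1-205 rose with a log2 fold change of 1.35 (SE 0.31, edgeR adjusted p = 0.000216), whereas that of Odc1-201 was -0.01 (SE 0.16, adjusted p = 0.979). Its share of Odc1 reads was 11.01%, 12.8% and 11.8% in the P/D samples. In RS it was 11.97% in replicate 1 (95% Wilson interval 7.61 to 18.3%), 33.2% in replicate 2 (26.9 to 40.1%) and 30.2% in replicate 3 (23.2 to 38.3%). RS replicate 1 therefore lay among the P/D samples, and an exact permutation test of the shares gave a two-sided p of 0.2, where 3 samples against 3 can go no lower than 0.1. Across the 2627 genes with more than 1 contig, the share of reads on the most-read contig was 74.4%, 71.7% and 72.5% in RS replicates 1 to 3 and 76.4 to 77.1% in P/D; the part of this in the Odc1-205 shares was not tested. These intervals cover counting error only.

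**Figure D2:**
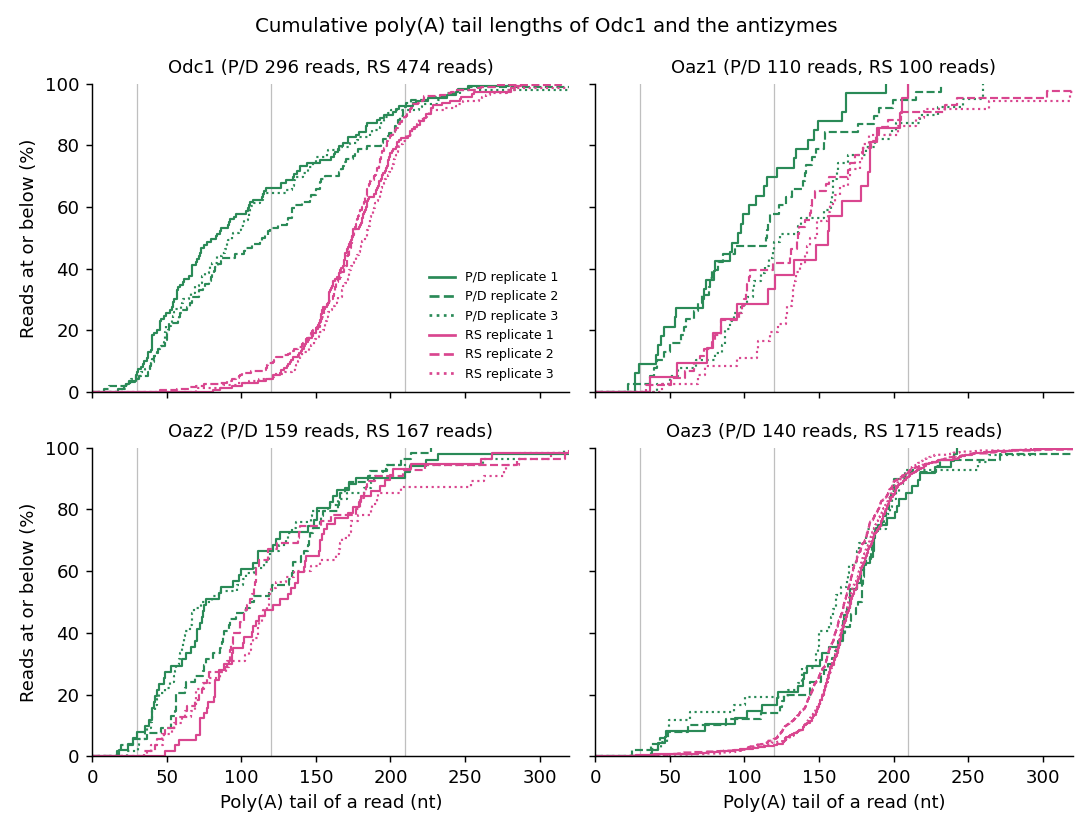
Cumulative share of reads (%) at or below each poly(A) tail length (nt) for Odc1 and the antizymes, 1 line per sample, green for P/D spermatocytes and pink for RS; thin grey lines mark 30, 120 and 210 nt. The Odc1 curves of the cell types are apart over most of their length, and the Oaz3 curves lie close together except below 120 nt.

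Amd1, the other synthesis gene, showed the reverse, with far fewer reads in RS and little difference in tail. Its contigs summed to 25, 34 and 27 reads in P/D spermatocytes and to 5, 13 and 6 in RS, or 104 ± 6.04 and 20.01 ± 6.41 RPM (SD, n = 3). The groups did not overlap and Amd1 fell by 2.21 on the log2 scale (SE 0.31, edgeR adjusted p = 7.28e-08). Its level was 4.62-fold higher in P/D spermatocytes. Amd1 entered the test through P/D spermatocytes alone, so entry and direction are linked. Both contigs tested fell, with log2 fold changes of -2.236 for Amd1-201 and -2.46 for ENSMUST00000238969 (adjusted p = 5.31e-05 and 4.02e-05). The latter was -4.37 without RS replicate 2 and -1.91 without RS replicate 3. The third, ENSMUST00000238953, had 9, 9 and 5 reads in P/D and 2, 3 and 3 in RS and was not tested.

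The mean Amd1 tail was 135, 118 and 154 nt in P/D spermatocytes and 142, 132 and 139 nt in RS. The RS values lay inside the P/D range, and the difference was 2.25 nt (SE 9.96, limma adjusted p = 0.865). With 5 to 13 RS reads in a sample, this difference is only loosely bounded.

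Oaz1 and Oaz2, the antizymes expressed in most tissues, had shorter tails than Odc1 in RS. The mean tail of Oaz2 was 101.3, 113 and 103 nt in P/D spermatocytes and 132, 121 and 137 nt in RS. The groups did not overlap, and the difference was 24.5 nt (SE 6.600, limma adjusted p = 0.0200). It fell short of the threshold with the replicate number as a block (adjusted p = 0.0646), without RS replicate 1 (0.0635) without RS replicate 3 (0.0623) and on medians (0.0570), over alternatives that ran from 0.00211 to 0.0646. In RS, 35.2% ± 10.1 of Oaz2 reads had tails of 120 to 210 nt and 55.8% ± 10.3 had tails of 30 to 120 nt, whereas in P/D spermatocytes these were 31.3% ± 10.01 and 57.9% ± 8.70 (SD, n = 3). The class shares overlapped between cell types. Reads below 30 nt, pooled over the samples, were 7 of 159 in P/D and 0 of 167 in RS, which allows up to 1.80% by counting error alone.

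The difference in Oaz2 mRNA level did not pass the test. There were 209, 176 and 199 RPM in P/D spermatocytes and 180, 116 and 157 in RS, which overlapped. The log2 fold change was -0.29 (SE 0.19, edgeR adjusted p = 0.177). With upper-quartile factors it was -0.55 and passed (adjusted p = 0.00985, over alternatives 0.00985 to 0.670).

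The mean tail of Oaz1 was 96.4, 110 and 138 nt in P/D spermatocytes and 141, 139 and 157 nt in RS. The lowest RS value was just above P/D replicate 3, and the difference of 30.7 nt (SE 11.95) did not pass the test (limma adjusted p = 0.0703). It passed without P/D replicate 3 (42.4 nt, adjusted p = 0.00979) and with the replicate block (adjusted p = 0.0320), and under 5 of 15 alternatives in all, which ran from 0.00979 to 0.185. Tails of 120 to 210 nt were on 35.2% ± 4.32 of Oaz1 reads in P/D and 60.7% ± 10.3 in RS (SD, n = 3), and these shares did not overlap.

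Oaz1 had 135, 124 and 144 RPM in P/D spermatocytes and 66.3, 90.6 and 101.1 in RS. All RS samples were lower, and Oaz1 fell by 0.52 on the log2 scale (SE 0.22, edgeR adjusted p = 0.0369). This call was lost with DESeq2 (adjusted p = 0.184) and when P/D replicate 1 (0.0690), P/D replicate 3 (0.0866), RS replicate 1 (0.135) or RS replicate 2 (0.0506) was left out; its alternatives ran from 0.00195 to 0.184.

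Oaz3 rose strongly in RS, and its reads had long tails in both sorted populations. It had 197, 163 and 155 RPM in P/D spermatocytes and 1535, 1384 and 1609 in RS. The lowest RS sample was far above the highest P/D sample, and the gene was 9.43-fold higher in RS (log2 fold change 3.24, SE 0.13, edgeR adjusted p = 2.60e-23), a change above that of 90.5% of the genes tested. In RS it stood at the 97.4th percentile of read level among the 1832 genes that had 20 or more reads in each sample, and in P/D spermatocytes at the 34.0th. Since a read counts 1 molecule, these levels compare between genes without a length correction.

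The major transcript Oaz3-204 (chr3:94433387-94436637, reverse strand) had 41, 48 and 39 reads in P/D and 460, 559 and 529 in RS. Oaz3-205, which shares its 3′ end, had 4, 1 and 2 reads in P/D and 22, 91 and 38 in RS. Both rose, by 3.17 and 3.90 on the log2 scale (adjusted p = 2.69e-22 and 9.75e-10). Oaz3-206 and Oaz3-207 had 9 and 8 reads in all, Oaz3-203 had 4 and Oaz3-208 had 1.

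The mean Oaz3 tail was 162, 165 and 156 nt in P/D spermatocytes and 174, 168 and 172 nt in RS. Although the groups did not overlap, the difference of 10.1 nt (SE 5.08) did not pass the test (limma adjusted p = 0.141). On medians the sign turned, to -0.43 nt. Only 15.9% ± 3.59 of Oaz3 reads in P/D spermatocytes had tails of 30 to 120 nt and 73.5% ± 4.63 had tails of 120 to 210 nt, and in RS these were 4.25% ± 1.202 and 87.0% ± 0.752 (SD, n = 3). In the P/D samples the Oaz3 tail was at the 99.2nd percentile of those 1832 genes, whose median was 106 nt. In RS it was at the 77.1st, where the median was 157 nt. The P/D samples also held reads of spermatid markers, given next, and the cell type from which their Oaz3 reads came was not tested.

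Reads of spermatid marker genes were present in the P/D samples, and their values are given beside those of Oaz3. The 10 round spermatid markers summed to 0.0815 to 0.101% of P/D reads and 0.335 to 0.361% of RS reads, and the 10 markers of elongating and elongated spermatids to 0.388 to 0.475% and 2.41 to 2.90%. None of the 20 was at 0 in P/D spermatocytes. Apart from Acrbp and Hspb9, the other 18 markers had P/D levels at 5.76 to 12.03% of their RS levels, where Oaz3 had 11.4% and Azin2 12.1%. The mean tails of those 18 markers ran from 122 to 248 nt in P/D and from 126 to 227 nt in RS. Acrbp, left out of that range, had mean tails of 120 nt in P/D and 199 nt in RS. Hspb9, also left out, had 117 nt in P/D and 162 nt in RS. The part of spermatid RNA in the Oaz3 and Azin2 reads of the P/D samples was not tested.

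**Figure D3:**
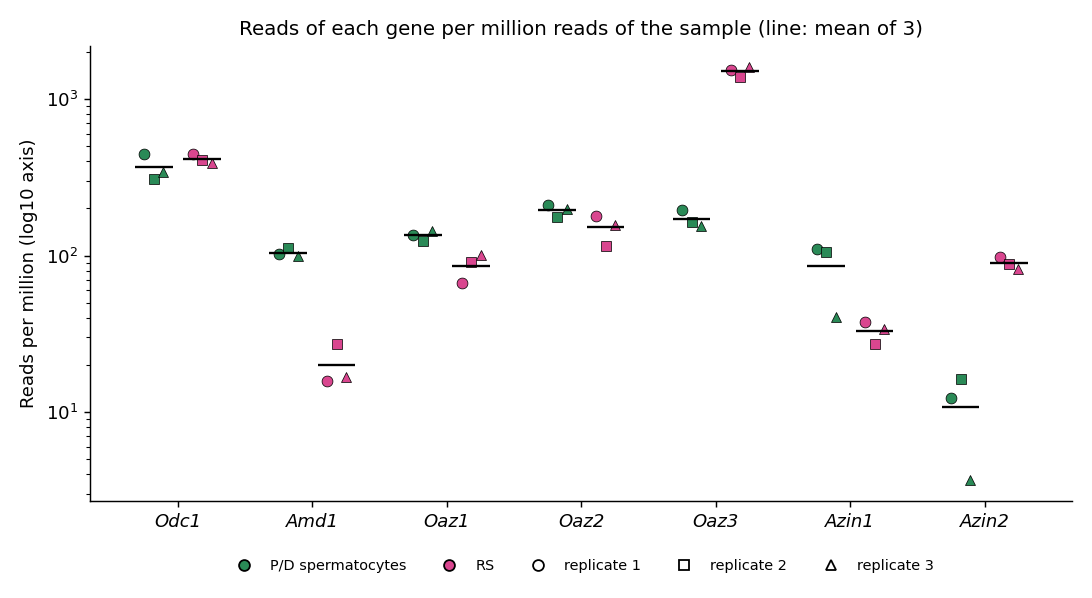
Level of each gene in each sample, in reads per 1000000 reads, on a log10 axis; green points are P/D spermatocytes, pink points are RS, symbols give the replicate and black lines the mean of 3. Oaz3 and Azin2 are higher in every RS sample, Amd1, Oaz1 and Azin1 are lower in every RS sample, and Odc1 and Oaz2 overlap.

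The balance of antizyme to enzyme transcripts was read within each sample, which removes the depth of the library. Oaz3 reads per Odc1 read were 0.440, 0.532 and 0.452 in P/D spermatocytes and 3.42, 3.40 and 4.12 in RS. Oaz1 reads per Odc1 read averaged 0.375 ± 0.0634 and 0.210 ± 0.0567, and Oaz2 reads 0.541 ± 0.0634 and 0.363 ± 0.0677 (SD, n = 3). The share of Oaz3 among antizyme reads was 34.2% ± 2.76 in P/D spermatocytes against 86.5% ± 0.492 in RS. Reads on Oaz1-201 and Oaz2-201 (87 and 80 in all) had no gene symbol and were left out. The ratios are therefore too low for Oaz1 and Oaz2, and the Oaz3 share is too high. None of these 4 ratios overlapped between cell types, and each had an exact two-sided permutation p of 0.1, the smallest that 3 samples against 3 can give (0.1 after adjustment over the 4). The ratios share the Odc1 reads or the antizyme reads, so they are not 4 separate results. How many other genes would separate in reads per Odc1 read was not counted. Of all genes tested, 34.7% had more reads in RS and 31.2% fewer.

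The order of the Oaz3 and Odc1 tails also turned. The mean Oaz3 tail was longer than that of Odc1 by 59.0, 45.3 and 45.1 nt in the P/D samples and differed from it by -4.24, -3.82 and -12.1 nt in RS. The mean Oaz2 tail differed from that of Odc1 by -5.46 ± 3.49 nt in P/D spermatocytes and by -47.6 ± 2.68 nt in RS (SD, n = 3). For Oaz1 these differences were 3.80 ± 20.4 and -32.1 ± 5.21 nt. The cell types did not overlap in any of the 3 differences (exact permutation p = 0.1 each, the smallest the design allows, and 0.1 adjusted over the 3). All 3 differences use the same Odc1 values, so they are not separate results. The Odc1 tail rose by more than that of 86.2% of all genes tested, so a smaller change than that of Odc1 was common.

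**Figure D4:**
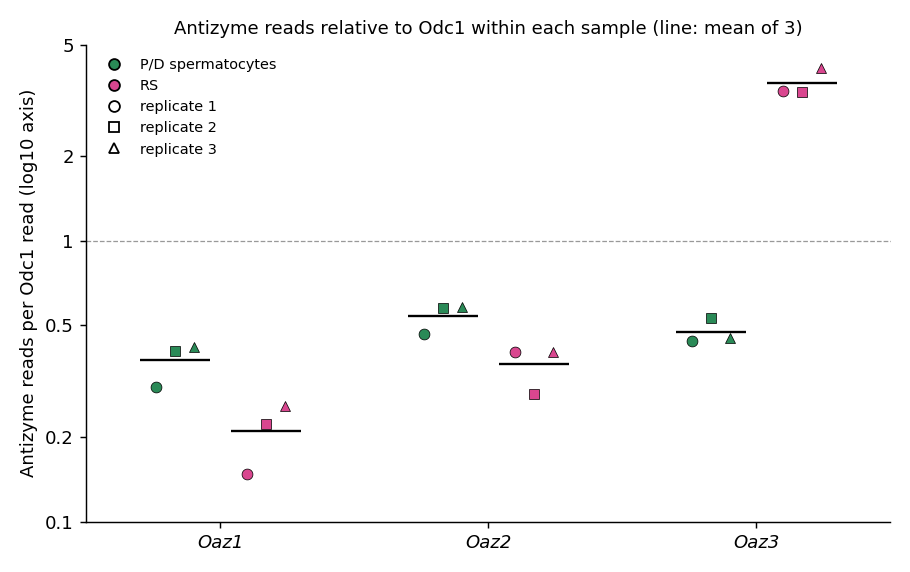
Reads of each antizyme per Odc1 read in each sample, on a log10 axis; green points are P/D spermatocytes, pink points are RS, symbols give the replicate, black lines the mean of 3 and the dashed line equal numbers. Oaz3 goes from 0.440 to 0.532 in P/D spermatocytes to 3.40 to 4.12 in RS, and Oaz1 and Oaz2 are lower in all RS samples.

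The antizyme inhibitors moved in opposite directions. Azin1 had 27, 32 and 11 reads in P/D spermatocytes against 12, 13 and 12 in RS, or 111, 105 and 40.5 against 37.9, 27.4 and 33.7 RPM. P/D replicate 3 was near the RS samples. Azin1 fell by 1.29 on the log2 scale (SE 0.33, edgeR adjusted p = 0.000736), and the log2 fold change of its major transcript Azin1-201 was -1.60 (adjusted p = 0.000170). The other contig, Azin1-205, had 22 reads in all and was not tested.

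The mean Azin1 tail was 168, 152 and 106 nt in P/D spermatocytes and 215, 184 and 198 nt in RS, a difference of 56.8 nt (SE 17.6, limma adjusted p = 0.0335). Tails above both classes were common here, since 40.8% ± 15.2 of Azin1 reads in RS had tails of 210 nt or more, against 9.24 to 10.8% of all RS reads. With only tails of 10 to 300 nt the difference was 17.5 nt (adjusted p = 0.343), and with medians 33.8 nt (0.337); the methods' t-test gave 0.0941, and the alternatives ran from 0.00627 to 0.343. Without RS replicate 1 it was 0.101, without RS replicate 3 0.0792 and without P/D replicate 2 0.0518.

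Azin2, known as the antizyme inhibitor of testis and brain, had 3, 5 and 1 reads in P/D spermatocytes against 31, 42 and 29 in RS. It was 8.44-fold higher in RS (log2 fold change 3.08, SE 0.39, edgeR adjusted p = 7.74e-09). Azin2 entered the test through RS alone, so entry and direction are linked. Its contigs Azin2-202 and Azin2-201, which share a 3′ end, rose by 3.16 and 2.81 on the log2 scale. The mean Azin2 tail in RS was 152, 153 and 148 nt, and 80.3% ± 0.873 of its RS reads lay between 120 and 210 nt. The P/D means of 149, 165 and 185 nt rest on 9 reads, and the difference of -15.1 nt (SE 9.57) did not pass the test (limma adjusted p = 0.227). Without P/D replicate 1 it did (-23.8 nt, adjusted p = 0.0430), over alternatives up to 0.654, and without P/D replicate 3 it was -5.95 nt (adjusted p = 0.508). Its contigs lay on opposite sides, with -40.7 nt for Azin2-201 (adjusted p = 0.0504) and 15.2 nt for Azin2-202 (adjusted p = 0.443), and neither passed.

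**Figure D5:**
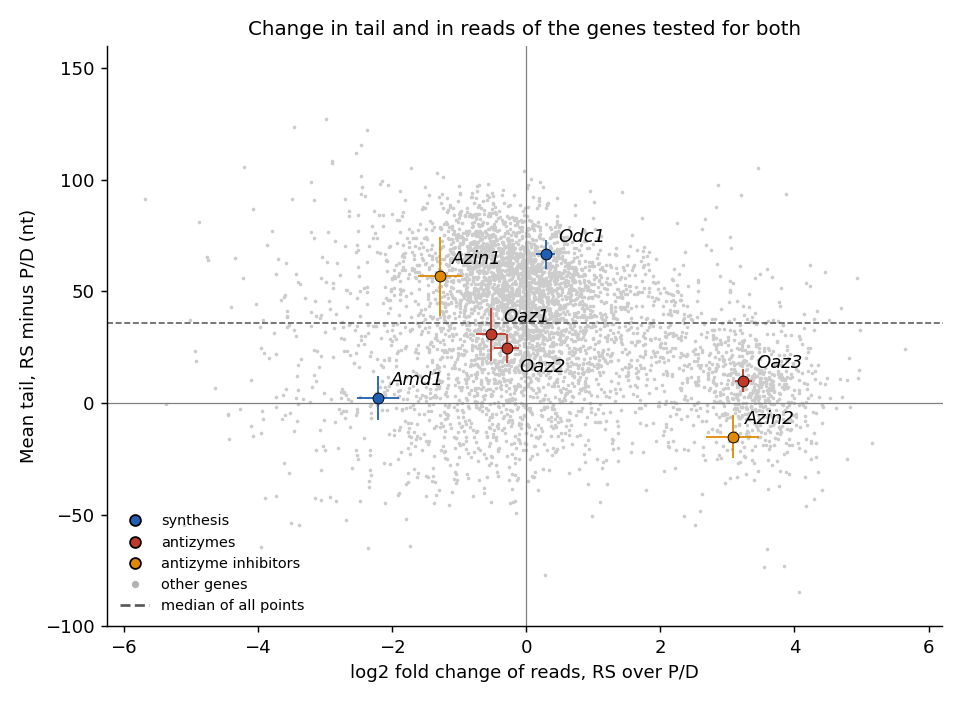
Difference in mean tail (nt, RS minus P/D) against log2 fold change of reads (RS over P/D) for the 4907 genes tested for both (grey; 3 lie outside the axes), with the members in colour by role and bars of 1 standard error. The standard error of the log2 fold change is approximate. Odc1 and Azin1 lie above the dashed median of 35.7 nt, and Oaz3 and Azin2 lie far to the right and below it. Amd1 lies far to the left near 0 nt.

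Other genes of the pathway, counted from a list of 29 that included Sms, Sat1, Smox and Dhps, were found for 7 symbols. Tails could be tested for 4 of them, of which 3 were longer in RS and none shorter, where 54.8% of all genes tested were longer. Of the 3 tested for reads, 0 had more in RS and 2 fewer, against 34.7% and 31.2% of all genes. Eif5a, whose protein carries the hypusine made from spermidine, had a mean tail 33.2 nt longer in RS (SE 4.79, limma adjusted p = 0.00156) and fell by 0.89 on the log2 scale (edgeR adjusted p = 5.85e-08). Dohh, which completes hypusine, had a tail 74.99 nt longer (adjusted p = 0.000441), and its reads did not pass the test (log2 fold change -0.48, adjusted p = 0.212). Apip, of the methionine salvage that recycles the by-product of polyamine synthesis, had a tail 57.3 nt longer (limma adjusted p = 0.00140). Its reads fell by 1.55 on the log2 scale (edgeR adjusted p = 0.000236). Apip entered the tests through P/D spermatocytes alone, so entry and the direction of its reads are linked. Satl1, related to the enzyme that acetylates spermidine and spermine, had 1 read in each P/D sample and 11, 8 and 12 in RS and did not pass the test for tails (adjusted p = 0.202). Enoph1, Eif5a2 and Slc3a2 had 2 to 13 reads in a sample and were not tested.

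The 4 members that had 20 or more reads in each sample were set beside the 1832 such genes by the distance over 12 values, the mean tail and the log2 level in each sample, each divided by its SD. Nearest to Odc1 were Strap, Ptdss2 and Mtch2 at distances of 0.583, 0.639 and 0.770, where the median gene lay at 3.33. Nearest to Oaz3 were Smcp, Gsg1 and Tulp2 at 0.918, 0.977 and 1.62, against a median of 5.71. Smcp, which encodes a sperm mitochondrial capsule protein and is among the elongating spermatid markers above, had mean tails of 167 nt in P/D and 173 nt in RS and 147 and 1427 RPM. For Oaz1 the nearest were Gnb1, Arl1 and Qrich1 (1.08 to 1.13), and for Oaz2 Nup188, Ndufaf2 and Rhbdd3 (0.777 to 0.838).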

How the data were processed

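The authors base-called the reads with Guppy, assigned barcodes with Deeplexicon, mapped to mouse transcripts with minimap2 (2.20-r1061 in the submitters' processing notes, build mm10) and estimated tails with Nanopolish. They deposited read counts per contig, not normalized, and a table of every read's tail in nt; the counts equalled the rows of that table for all 12114 contigs. Contigs were assigned to genes by the symbol in the deposited table, and coordinates come from GENCODE vM21 (GRCm38.p6), which held 11344 of the 11517 annotated contigs. Tails were averaged per contig or gene and sample. Features with at least 10 reads in 2 replicates of 1 cell type were tested with limma 3.58.1. Counts were tested with edgeR 4.0.16 (quasi-likelihood, TMM, filterByExpr) and with DESeq2 1.42.0 as an alternative. The SE given with a log2 fold change was derived from the F statistic of the edgeR test and is approximate. The limma and edgeR fits were checked on simulated data, and DESeq2 was not. P-values were adjusted over all features tested, at a threshold of 0.05. They rest on the spread between samples, which for features of few reads also holds the error of sampling reads. The main tail fit gave every sample the same weight, whatever its number of reads. Symbols were matched in Python 3.11.15 (scipy 1.17.1). Genes named beside the members came from a pathway list and as the 3 nearest genes by distance. The members and lists were chosen with earlier results of these data known. The study took its cell types from shared animals, but no source used here says that same-numbered pools hold the same mice. Deviations of same-numbered samples correlated at -0.01, 0.08 and 0.02 for tails and 0.01, 0.08 and -0.03 for counts across contigs, and at -0.0059, 0.106 and -0.0077 for tails across genes, so the replicate block was kept as an alternative.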

Additional observations from a re-analysis of the deposited data

Results flagged for a closer look

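Reads of antizyme genes were also found on contigs that had no gene symbol in the tail table and so entered no comparison above. GENCODE vM21 assigns them to members. Oaz1-201 had 87 reads in all, with mean tails of 117, 125 and 125 nt in P/D spermatocytes and 139, 145 and 201 nt in RS. Oaz2-201 had 80 reads in all, with mean tails of 119, 98.2 and 114 nt in P/D and 136, 118 and 133 nt in RS. Both are above the 3 counts taken as the floor. Oaz3-201 had 2 reads and is below it.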

How the results depend on the processing

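Of the 241 refits of member tail differences, 197 kept their direction and side of the threshold, and of the 233 refits of log2 fold changes, 211 did. Odc1 tails and the changes in reads of Amd1, Oaz3, Azin1 and Azin2 kept theirs under every alternative in which they were tested. Amd1 and Azin2 had too few reads to be tested with 10 counts in every sample, so that setting could not challenge them. The 4 transcripts with longer tails became 2 with medians, 2 with tails of 10 to 300 nt, 2 with the replicate number as a block and 2 to 4 when a replicate was left out. The 3 genes with longer tails became 1 to 4 when a replicate was left out, with 1 (Odc1) without RS replicate 1 or 3. Requiring 10 counts in every sample left 5 member contigs and 5 member genes to test, with 2 transcripts higher, 0 lower and 1 gene lower. With the replicate block, beside the calls named above, only the Azin1-201 tail (adjusted p = 0.0601) and Oaz2-206 tail (0.0760) changed sides. Values near 0 changed sign. With medians the tail difference was 24.97 nt for Amd1-201 and -0.89 nt for Oaz3-204, and -0.43 nt for the Oaz3 gene. Leaving out a replicate gave -17.7 to 16.0 nt for Amd1-201 and -6.61 to 11.7 nt for Amd1. The log2 fold change of Odc1-201 was 0.036 with DESeq2, 0.048 with RLE factors, 0.19 with 10 counts in every sample and -0.15 to 0.15 when a replicate was left out. Upper-quartile factors moved the median of all genes from 0.01 to -0.26 on the log2 scale and called 1447 genes higher and 2039 lower in place of 1724 and 1552; DESeq2 moved it to 0.13. The cause of these changes was not tested. Grouping contigs by GENCODE symbol, chosen after seeing the data, ended the call of fewer Oaz1 reads (log2 fold change -0.41, adjusted p = 0.0584). Depth limits Azin2 in P/D spermatocytes and Amd1 in RS, at 1 to 13 reads a sample.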
